A study of Rattus norvegicus with 6 samples.

Results

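Stellate cells are the liver's main store of vitamin A and, once activated, its main source of scar collagen. They lie between the hepatocytes and the sinusoidal endothelium, are recognised by the PDGF receptors, reelin and desmin, and on activation gain smooth muscle actin and secrete fibrillar collagen. Collagen chains are hydroxylated and folded in the endoplasmic reticulum, secreted, crosslinked by lysyl oxidases and degraded by matrix metalloproteinases, whose inhibitors are the TIMPs. Other liver cells contribute to the matrix as well, among them hepatocytes, which make plasma fibronectin.

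The genes described here are 40 stellate cell and extracellular matrix genes, chosen by name: 9 collagens, 9 genes of collagen processing, 7 other matrix proteins, 5 proteases and protease inhibitors, 2 signals and 8 stellate cell markers. Probes named through their accession covered 36 of them, among 15284 named genes on the array. Col4a2, Col5a2, Col6a1 and Lox were not analysed here because no probe was named for them. In 34 genes a probe was well above background in all 3 rats of at least 1 group, and these 34 were tested. The exceptions were lumican (Lum), which was not well above background in any rat, and Thy1, a surface protein of fibroblasts, which was well above background in BBMP 1 and BBMP 3 and in no other rat.

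The livers came from male Sprague-Dawley rats, Crl:CD(SD), bought at 5 weeks of age and kept on a basal diet. The control group (n = 3) received corn oil alone. The treated group (n = 3) was given 1000 mg/kg/day of BBMP, which is 2,2-bis(bromomethyl)-1,3-propanediol, a compound used as a flame retardant. The labels state the length of treatment both as 28 days and as 9 weeks, and the files do not settle which holds. Each rat has 1 array, and the comparison asks how matrix and stellate cell genes differed between treated and control livers.

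The arrays behaved alike, with 60.1% to 64.4% of probes well above background and correlations between arrays of 0.986 to 0.992. Of 12 hepatocyte markers, albumin and transferrin among them, 12 were well above background in all 6 rats, as the label liver requires. All corn oil arrays shared 1 slide and scan day and all BBMP arrays another, so a difference by treatment cannot be told apart from one by slide or scan day. In whole liver RNA, fewer cells of a type and less RNA per cell also cannot be told apart.

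No promoter sequence was available for 14 members, among them Fn1, Pdgfrb, Mmp2, Bgn and Eln. None is shown for the members with the largest downward differences. Reelin and Sparc were lower in every treated rat than in every control, Col1a2 was nearly level, and Ccn2 had the largest upward difference. Promoter sequences of these 4 members are shown. They cover 250 bases before to 50 bases after the start of each gene, from RefSeq on GRCr8, written 5′ to 3′ on the gene's strand. Capitals mark matches on either strand to CCAAT (the CCAAT box), TATAAA (the TATA box), GGGCGG (the GC box, bound by SP1) or CATTCC (the motif of the TEAD factors, partners of YAP). No matches overlapped one another.
Reln, chr4:13628318-13628617, plus strand: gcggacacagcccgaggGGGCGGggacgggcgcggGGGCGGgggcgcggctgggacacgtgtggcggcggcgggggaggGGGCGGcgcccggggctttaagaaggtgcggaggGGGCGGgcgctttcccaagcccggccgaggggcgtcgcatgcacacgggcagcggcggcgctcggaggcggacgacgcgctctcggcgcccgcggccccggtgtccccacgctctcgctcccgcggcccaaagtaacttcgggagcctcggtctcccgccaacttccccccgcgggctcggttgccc
Sparc, chr10:40038767-40039066, minus strand: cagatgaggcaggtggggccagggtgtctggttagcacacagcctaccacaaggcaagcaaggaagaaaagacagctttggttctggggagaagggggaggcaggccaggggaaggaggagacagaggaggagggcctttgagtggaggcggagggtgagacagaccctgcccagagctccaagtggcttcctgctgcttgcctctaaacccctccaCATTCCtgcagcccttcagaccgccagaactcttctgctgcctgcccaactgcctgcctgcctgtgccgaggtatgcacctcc
Col1a2, chr4:33518307-33518606, plus strand: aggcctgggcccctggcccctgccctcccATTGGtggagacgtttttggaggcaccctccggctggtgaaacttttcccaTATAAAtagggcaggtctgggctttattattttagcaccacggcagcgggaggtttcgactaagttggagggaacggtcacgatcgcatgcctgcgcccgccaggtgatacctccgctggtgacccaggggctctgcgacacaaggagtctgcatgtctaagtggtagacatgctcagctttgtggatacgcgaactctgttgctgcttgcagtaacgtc
Ccn2, chr1:22624565-22624864, minus strand: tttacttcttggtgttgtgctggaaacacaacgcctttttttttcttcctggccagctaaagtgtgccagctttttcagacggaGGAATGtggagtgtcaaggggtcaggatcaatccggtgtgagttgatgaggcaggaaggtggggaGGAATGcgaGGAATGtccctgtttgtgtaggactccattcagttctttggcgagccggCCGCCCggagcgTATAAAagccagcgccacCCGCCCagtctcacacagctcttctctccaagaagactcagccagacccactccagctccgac

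The reelin promoter held 4 GC boxes and none of the other motifs. The Sparc promoter held 1 TEAD motif, and the Col1a2 promoter 1 CCAAT box and 1 TATA box. The Ccn2 promoter held 3 TEAD motifs, 2 GC boxes and 1 TATA box. Of all 33469 promoters of this length, 33.06% held a GC box, 14.19% a TEAD motif, 37.49% a CCAAT box and 14.22% a TATA box. Among the 26 members in the table, 16 held a GC box, 5 a TEAD motif, 7 a CCAAT box and 3 a TATA box. These matches are descriptions of letters in a window and say nothing of binding.

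Matrix genes were mostly somewhat lower in BBMP livers, by amounts that did not pass the test over all features. Of the 34 tested members, 23 were lower and 11 higher, where 52.5% of all features were lower. The median log2 difference (BBMP minus corn oil) was -0.14 over the members and -0.01 over all 28112 features. Among members well above background in all 6 rats, the largest differences between group means were those of Ccn2, Loxl1, Fn1, Pdgfrb and Eln. Ccn2 was 1.52-fold higher, and the others were lower, from 1.46-fold for Loxl1 to 1.43-fold for Eln. Without BBMP 3 the members' median was -0.068.

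**Figure D1:**
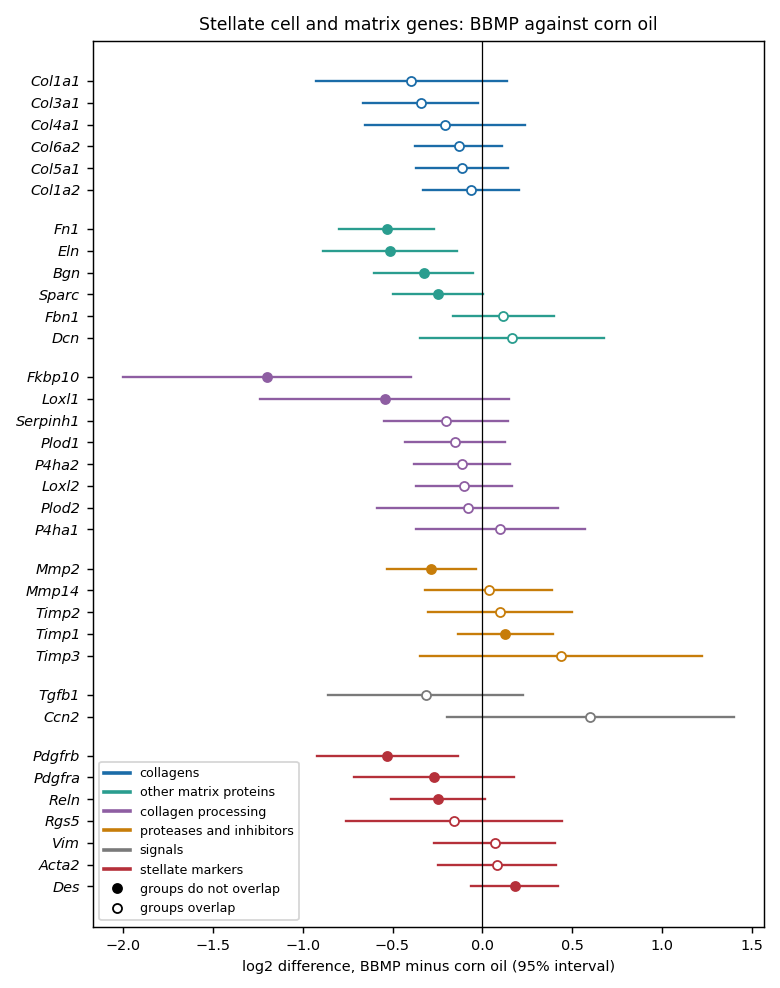
Log2 difference (BBMP minus corn oil, x axis) of the 34 tested genes (y axis), coloured by role, with the 95% interval from limma as a line. Filled points mark the 12 genes whose groups do not overlap, of which 10 were lower and 2 higher; the 6 collagens all lie left of 0, although Col1a2 moves right of 0 with normexp background correction or without BBMP 2, and Col5a1 with the mean of its probes.

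No member passed limma's adjusted p of 0.05 (0 of 34), and over all features 2 passed (0.00711%), both lower. At an unadjusted p under 0.05 there were 7 members lower and 0 higher, against 6.1% and 4.7% of all features. The 7 were Fn1, Fkbp10, Eln, Pdgfrb, Bgn, Mmp2 and Col3a1. Fkbp10 entered the test through the corn oil group alone, a selection that favours a lower reading in BBMP livers. When signal was required in all 6 rats, 6 members were under 0.05. The groups did not overlap for 10 members that were lower, Fkbp10 among them, and for 2 that were higher, against 9.6% and 8.25% of all features. With signal required in all 6 rats, 11 members did not overlap. For 30 of the 34 members the 95% interval of the difference lay within a 2-fold change either way. The same held for 24536 of all 28112 features, so the members did not stand out in this.

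The 6 measured collagens were each lower in BBMP livers, by 0.06 to 0.40 on the log2 scale, with a median of -0.17, and for each of them the groups overlapped. The count was 5 of 6 with normexp, where Col1a2 was at 0.0045, and 5 of 6 with the mean of a gene's probes, where Col5a1 was at 0.098. Without BBMP 2 it was also 5 of 6, with Col1a2 at 0.0060. Col3a1, the type III fibrillar collagen of the reticular network, had log2 signals of 4.63, 4.26 and 4.51 in corn oil and 4.27, 4.05 and 4.05 in BBMP livers. Here and below a log2 signal is relative to the 75th percentile of its array and is compared only between rats, not between genes. The Col3a1 groups met at corn oil 2 and BBMP 1, and the difference was -0.34 ± 0.13 (SE; limma adjusted p = 0.449).

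Type I collagen, the main collagen of scar, was carried by 2 genes. Col1a1, its alpha 1 chain, read 0.33, 0.68 and 0.65 in corn oil and 0.62, 0.0046 and -0.14 in BBMP livers. BBMP 1 lay among the controls while the other treated rats lay below them, and the difference was -0.40 ± 0.22 (SE; limma adjusted p = 0.549). It was -0.62 without BBMP 1, -0.25 without BBMP 3 and -0.48 with normexp. The other Col1a1 probes gave -0.24 and -0.10, both with overlap. Col1a2, the alpha 2 chain, read 3.53, 3.56 and 3.64 against 3.68, 3.38 and 3.48. Its groups overlapped fully, with a difference of -0.06 and a 95% interval from -0.33 to 0.21. A difference beyond 1 on the log2 scale in either chain therefore lay outside the interval, and smaller ones were not resolved with 3 rats a group.

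For the remaining collagens the difference was close to its error. Col4a1, of the basement membrane network, differed by -0.21 ± 0.19 (SE), Col6a2, of the microfibrils around cells, by -0.13 ± 0.10, and Col5a1, which sets the diameter of collagen fibrils, by -0.11 ± 0.11. Normexp gave -0.071 for Col4a1 and -0.059 for Col5a1. Col4a1 ranged from -0.36 without corn oil 2 to -0.11 without BBMP 3. The median of the collagens was -0.092 without BBMP 3 and -0.24 without corn oil 2.

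Among other matrix proteins, the brightest probes of fibronectin, elastin, biglycan and Sparc were lower in every treated rat than in every control. Those of decorin and fibrillin-1 were not. Of the 6 tested genes 4 were lower, with a median log2 difference of -0.29, whereas with the mean of a gene's probes 3 were lower and the median was -0.013. Fibronectin (Fn1), a plasma and matrix glycoprotein that hepatocytes secrete and on which collagen is assembled, had the smallest p of all members. It read 7.08, 7.15 and 7.29 in corn oil and 6.53, 6.77 and 6.63 in BBMP livers. The gap between the groups exceeded the spread within each, and the difference was -0.53 ± 0.11 (SE; 95% interval -0.80 to -0.27; limma adjusted p = 0.350), or 1.45-fold lower. Its other 2 probes gave -0.46 and -0.66, also without overlap. With normexp the brightest probe gave -0.60.

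Biglycan (Bgn), a small leucine-rich proteoglycan, read 6.51, 6.37 and 6.32 in corn oil and 6.09, 6.20 and 5.93 in BBMP livers, a difference of -0.33 ± 0.11 (SE; limma adjusted p = 0.423). With normexp it was -0.44. The other biglycan probe gave 0.23, with BBMP 2 at 3.22 and the other 5 rats at 1.46 to 2.06. Elastin (Eln), the core of elastic fibres, read -0.11, -0.12 and 0.21 against -0.76, -0.33 and -0.47. The brightest elastin probe thus differed by -0.51 ± 0.15 (SE; limma adjusted p = 0.406), or -0.28 with normexp. Another, dimmer one was higher in every treated rat, at 0.44 ± 0.11, and the remaining one, dimmer still, was at 0.14 with overlap. The direction for elastin therefore depends on the probe, and with the mean of its probes the difference was 0.023.

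Sparc, a collagen-binding glycoprotein whose promoter is printed above, read 5.14, 4.99 and 5.12 in corn oil and 4.96, 4.80 and 4.75 in BBMP livers. BBMP 1 lay just below corn oil 2, and the difference was -0.25 ± 0.10 (SE; limma adjusted p = 0.468), or -0.35 with normexp. Decorin (Dcn), a proteoglycan that binds collagen fibrils and TGF-beta, differed by 0.17 ± 0.21, and fibrillin-1 (Fbn1), the scaffold of microfibrils, by 0.12 ± 0.12 (0.051 with normexp), both with overlap.

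**Figure D2:**
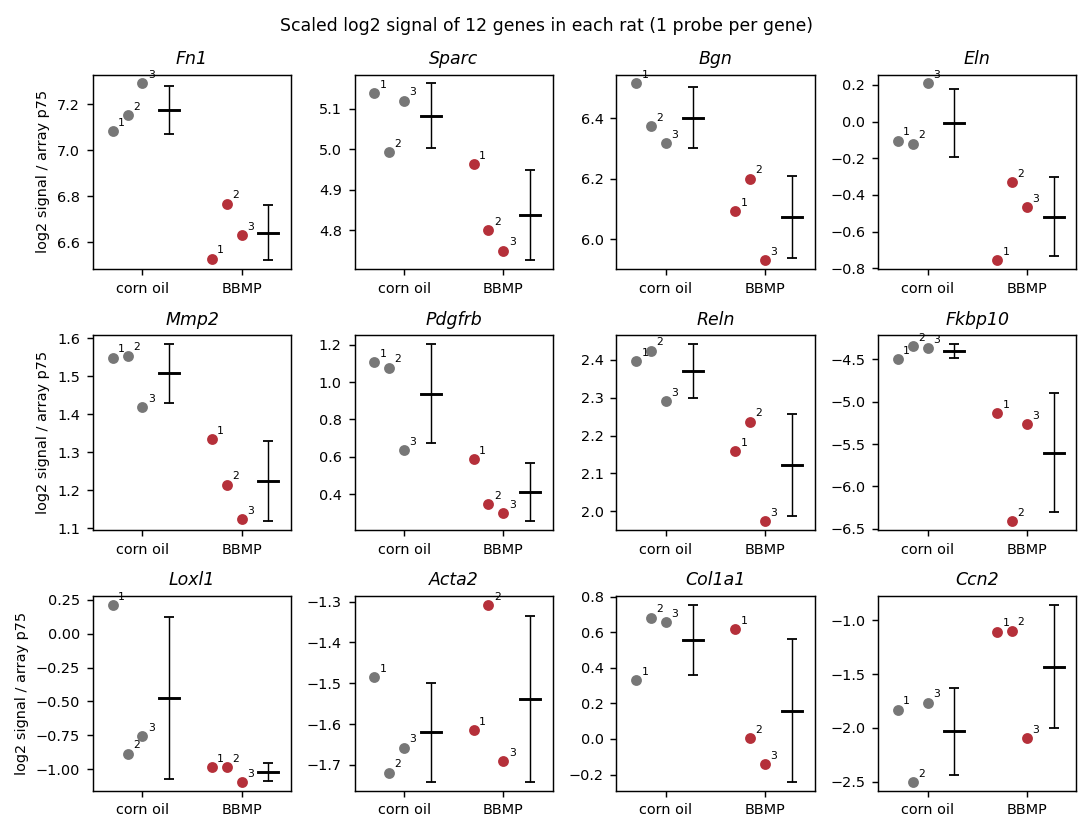
Log2 signal relative to the array's 75th percentile (y axis, own range in each panel) of 12 genes in each rat of the corn oil (grey) and BBMP (red) groups, with replicate numbers; bars are the mean and SD (n = 3). On the brightest probe of each gene, Fn1, Sparc, Bgn, Eln, Mmp2, Pdgfrb, Reln, Fkbp10 and Loxl1 do not overlap between groups, and Acta2, Col1a1 and Ccn2 do.

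Of the 8 measured genes of collagen processing, 7 were lower in BBMP livers, with a median log2 difference of -0.13. Fkbp10, an endoplasmic reticulum chaperone needed for hydroxylation of collagen crosslinks, was dim. It read -4.50, -4.34 and -4.37 in corn oil, well above background in 3 of 3 rats, and -5.14, -6.41 and -5.26 in BBMP livers, well above background in 0 of 3. In these signals, with the limit of measurement taken for the treated rats, the group means lay at least 1.75-fold apart. That bound leaves out the spread between rats and the selection through the corn oil group. With normexp the difference was -0.23, smaller than the bound. The measured difference, -1.20 ± 0.33 (SE; limma adjusted p = 0.401), rests on signals near background. Without BBMP 2 it was -0.79, and the other Fkbp10 probe was not well above background in any rat.

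Loxl1, a lysyl oxidase that crosslinks elastin, read 0.21, -0.89 and -0.75 in corn oil and -0.98, -0.99 and -1.09 in BBMP livers. Corn oil 1 stood far above the other controls, and the difference of -0.54 ± 0.29 (SE; limma adjusted p = 0.533) went to -0.20 without that rat. With normexp and all rats the Loxl1 difference was -0.57. Serpinh1 (HSP47), the chaperone of the collagen triple helix, differed by -0.20 ± 0.14. Its groups overlapped, as did those of the genes that follow.

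The prolyl 4-hydroxylase subunits, which stabilise the triple helix, were at 0.10 ± 0.20 (SE) for P4ha1 and -0.11 ± 0.11 for P4ha2. The lysyl hydroxylases, which prepare crosslinks, were at -0.15 ± 0.11 for Plod1 and -0.08 ± 0.21 for Plod2. Normexp gave -0.0075 for P4ha2 and -0.047 for Plod1. Loxl2, a lysyl oxidase of basement membrane and scar collagen, was at -0.10 ± 0.11. Apart from Fkbp10 and Loxl1, no gene of this group had a 95% interval that reached a 2-fold change.

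The proteases and their inhibitors did not share the downward direction, with 1 of 5 lower and a median log2 difference of 0.10. With normexp 3 of 5 were lower and the median was -0.06. The lower gene was Mmp2, the gelatinase that stellate cells and fibroblasts secrete. It read 1.55, 1.55 and 1.42 in corn oil and 1.33, 1.21 and 1.12 in BBMP livers, without overlap, a difference of -0.28 ± 0.10 (SE; limma adjusted p = 0.433), or -0.19 with normexp. Its other probe gave -0.33, also without overlap.

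Mmp14, the membrane protease that activates the Mmp2 protein, was at 0.03 ± 0.15 (SE), with a 95% interval from -0.32 to 0.39, and at -0.17 with normexp. Timp1, an inhibitor that is induced in scarring liver, read 1.39, 1.33 and 1.37 in corn oil and 1.67, 1.40 and 1.40 in BBMP livers. All treated rats lay above the controls, but BBMP 2 and BBMP 3 by little, and the difference was 0.13 ± 0.11 (SE; limma adjusted p = 0.696). It was 0.038 without BBMP 1 and -0.061 with normexp. Timp2 was at 0.10 ± 0.17. Timp3, a matrix-bound inhibitor, was at 0.44 ± 0.33 on a dim probe that was not well above background in corn oil 1. Timp3 thus entered the test through the BBMP group alone, a selection that favours a higher reading in BBMP livers. Its difference was 0.029 with normexp and 0.19 without corn oil 1.

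The 2 signals pointed opposite ways, neither beyond the spread between rats. Ccn2 (CTGF), a matricellular protein induced by TGF-beta and YAP, read -1.83, -2.50 and -1.77 in corn oil and -1.11, -1.10 and -2.09 in BBMP livers. BBMP 1 and BBMP 2 lay above every control and BBMP 3 between them, and the difference was 0.60 ± 0.33 (SE; limma adjusted p = 0.548). Without corn oil 2 it was 0.37 and without BBMP 3 it was 0.93. Tgfb1, the main profibrotic cytokine, was at -0.31 ± 0.23 (SE), with a treated range from -3.31 to -2.43 that spanned 2 of the 3 controls. Without BBMP 2 it was -0.083, and with normexp -0.20.

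Of the 7 tested stellate cell markers, 4 were lower (Pdgfra, Pdgfrb, Reln and Rgs5) and 3 higher (Des, Acta2 and Vim), and with normexp 5 were lower. Pdgfrb, the receptor through which PDGF drives stellate cell division, read 1.11, 1.08 and 0.63 in corn oil and 0.59, 0.35 and 0.30 in BBMP livers. Corn oil 3 lay close to BBMP 1, the groups did not overlap, and the difference was -0.53 ± 0.16 (SE; limma adjusted p = 0.406), or 1.44-fold lower. With normexp it was -0.35. The other Pdgfrb probe gave -0.51, with overlap between corn oil 3 and BBMP 1. Pdgfra, the receptor for PDGF-A, read 1.44, 1.32 and 1.38 against 1.32, 1.31 and 0.69. Its difference of -0.27 ± 0.18 rested on BBMP 3 and was -0.06 without that rat.

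Reelin (Reln), a secreted glycoprotein that marks stellate cells in liver, read 2.40, 2.43 and 2.29 in corn oil and 2.16, 2.24 and 1.97 in BBMP livers. The groups did not overlap with any of its 3 probes, which gave -0.25 ± 0.11 (SE; limma adjusted p = 0.477), -0.26 and -0.35. With normexp the first was -0.17. Desmin (Des), the intermediate filament of stellate and muscle cells, was higher in every treated rat, at -2.24, -2.41 and -2.19 against -2.49, -2.47 and -2.42. BBMP 2 cleared the controls narrowly, and the difference was 0.18 ± 0.10 (SE; limma adjusted p = 0.548), or 0.12 with normexp.

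Smooth muscle actin (Acta2), the standard marker of activated stellate cells, read -1.48, -1.72 and -1.66 in corn oil and -1.62, -1.31 and -1.69 in BBMP livers. Its groups overlapped, with a difference of 0.08 ± 0.14 (SE) and a 95% interval from -0.25 to 0.41. Vimentin (Vim), the mesenchymal intermediate filament, was at 0.07 ± 0.14, and Rgs5, of pericytes, at -0.16 ± 0.25. With normexp Acta2 was at 0.0015, Vim at -0.0028 and Rgs5 at -0.091. The median of the 7 tested markers was -0.16. It was 0.016 without corn oil 1, -0.27 without BBMP 2 and -0.062 without BBMP 3, so its sign turned when corn oil 1 was left out.

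**Figure D3:**
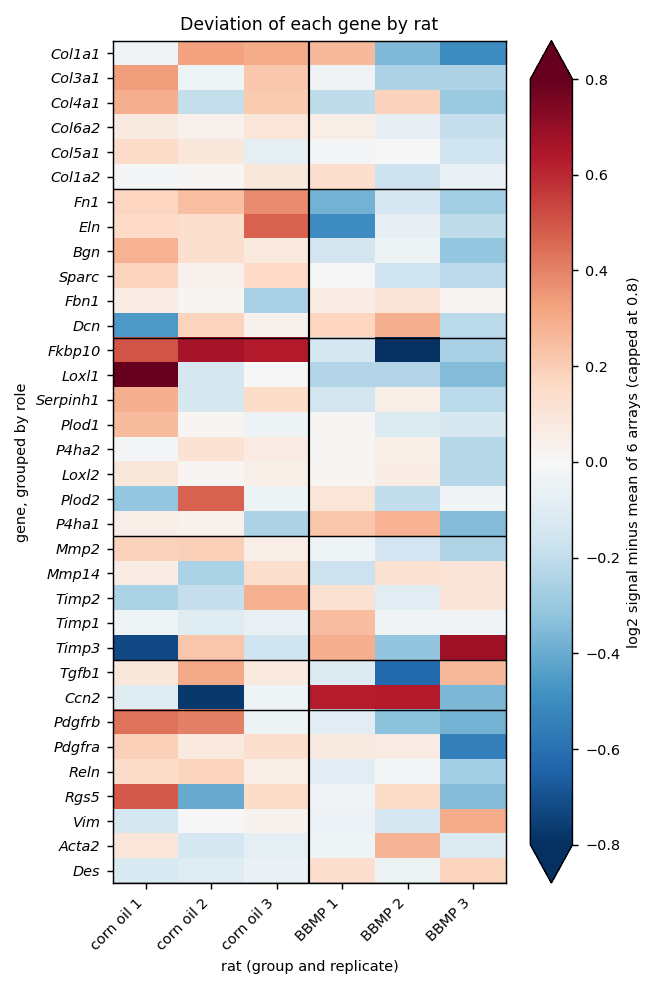
Log2 signal of each tested gene (rows, grouped by role) in each rat (columns), minus the gene's mean over the 6 rats; red is above and blue below that mean, with the colour scale capped at 0.8 either way. BBMP 3 holds the lowest value of 17 of the 34 genes and corn oil 1 the highest of 12.

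The rats differed in how far the genes moved as a group. Averaged over the 34 members as deviations from each gene's mean, the log2 score was 0.099, 0.043 and 0.081 in corn oil and 0.0046, -0.078 and -0.15 in BBMP livers. BBMP 1 lay nearest the controls and BBMP 3 farthest from them. BBMP 3 had the lowest value of 17 of the 34 members, and corn oil 1 the highest value of 12. For the collagens alone the score was 0.13, 0.039 and 0.14 against 0.035, -0.11 and -0.24, so that BBMP 1 lay just below corn oil 2. For the 7 tested stellate markers it was 0.16, 0.0031 and 0.027 against -0.012, -0.0063 and -0.17. There BBMP 2 lay just below corn oil 2.

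Several probes were measured for 17 members, and for 13 of these all probes gave the same sign, 12 of them lower. The 4 with probes of both signs were Bgn, Col5a1, Eln and Fbn1. Beside elastin, the widest split was in Col5a1, where a dim probe was higher in every treated rat (0.45 ± 0.10, SE) and the others were at -0.11 and -0.04. Over all 58 tested member probes 42 were lower and 16 higher, where 52.5% of all features were lower. Without overlap were 16 lower and 4 higher probes, against 9.6% and 8.25% of all features, each represented by 1 probe. Genes with more probes weigh more in these probe counts, which add no support to the counts by gene. Probes of 1 gene share the same RNA and are not replicates.

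**Figure D4:**
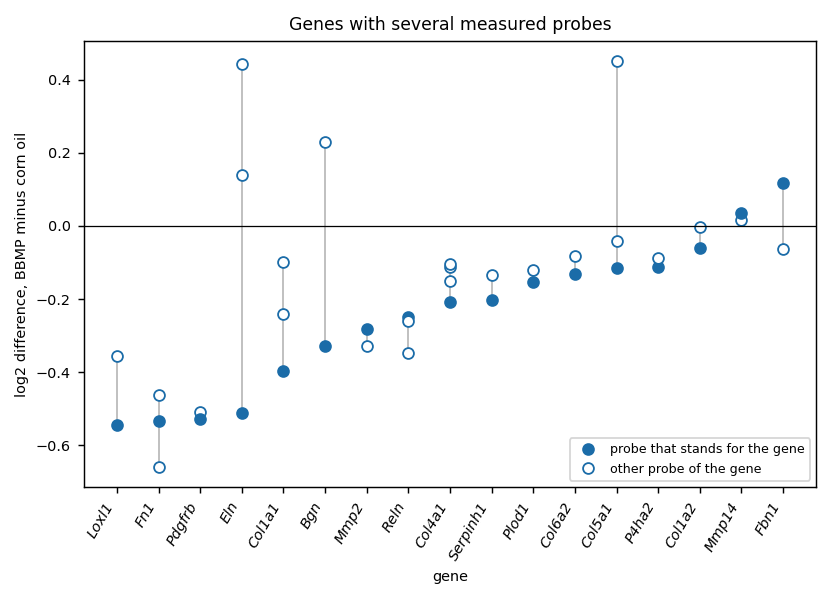
Log2 difference (BBMP minus corn oil, y axis) of every tested probe of the 17 genes with several (x axis); filled points are the brightest probe, which stands for the gene in the test. The probes of Fn1, Pdgfrb, Mmp2 and Reln lie close together below 0, while those of Eln, Bgn and Col5a1 fall on both sides.

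A wider list of 214 matrix, TGF-beta, PDGF and mesenchymal genes showed a similar tilt. Of these, 170 had a named probe and 139 were tested: 90 were lower and 49 higher, with a median log2 difference of -0.10. No gene passed limma's adjusted p of 0.05 (0 of 139), and 17 were lower and 1 higher at an unadjusted p under 0.05, where 6.1% and 4.7% of all features were. The groups did not overlap for 26 lower and 3 higher genes, against 9.6% and 8.25% of all features. These genes give no test of the members, since both lists were measured in the same 6 livers.

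In the list of other stellate and mesenchymal genes, Ngfr and Gfap had the smallest p. Gfap, a glial filament that rat stellate cells also make, read -3.60, -4.17 and -4.22 in corn oil and -5.17, -5.46 and -4.59 in BBMP livers. Its difference was -1.08 ± 0.27 (SE; limma adjusted p = 0.386), near the limit of measurement, since 2 of the 3 treated rats were well above background. Gfap thus entered the test through the corn oil group alone, a selection that favours a lower reading in BBMP livers. Ngfr, the low-affinity neurotrophin receptor of stellate cells, read -3.17, -3.24 and -3.26 against -4.63, -4.04 and -3.80. It lay lower in each treated rat, with a difference between means of -0.94 ± 0.21 (SE; limma adjusted p = 0.376). With normexp both were much smaller, at -0.35 for Gfap and -0.33 for Ngfr. Lrat, which esterifies retinol for storage, was at -0.49 ± 0.14 (SE) without overlap. Some other stellate cell genes were nearly level, among them Pparg (-0.04), Lhx2 (-0.03), Hgf (0.06) and Colec10 (0.07). Others were lower, among them Kcnj8 (-0.54) and Bmp5 (-0.32), both without overlap, and Tcf21 (-0.39) and Hand2 (-0.32), both with overlap. In the whole list of other stellate and mesenchymal genes 25 of 35 were lower and 10 higher, with a median of -0.11.

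In collagen processing, Loxl4, a further lysyl oxidase, had the smallest p of the wider list. It read 0.08, 0.76 and 0.52 in corn oil and -0.25, -0.67 and -0.56 in BBMP livers, a difference of -0.95 ± 0.20 (SE; limma adjusted p = 0.352). The treated rats lay below every control, and the groups came nearest at corn oil 1 (0.08) and BBMP 1 (-0.25). This gap was smaller than the spread within either group. Fkbp7, an endoplasmic reticulum peptidyl-prolyl isomerase, was at -0.35 ± 0.13. Of the 23 tested genes of this list 16 were lower, with a median of -0.10.

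Col14a1, a collagen that lies on the surface of fibrils, read 3.26, 3.34 and 3.15 in corn oil and 2.81, 2.86 and 2.62 in BBMP livers, and 4 of its 4 probes were lower. Its difference was -0.49 ± 0.11 (SE; limma adjusted p = 0.376). Col13a1, a transmembrane collagen, was at 0.54 ± 0.29 on a dim probe, at 0.094 with normexp and at 0.23 without corn oil 2. It entered the test through the BBMP group alone, which favours a higher reading in BBMP livers. In this list of other collagens 5 of 8 were lower. Among glycoproteins and proteoglycans 19 of 25 were lower, with a median of -0.22. The 2 with the smallest p were Thbs2, a matricellular thrombospondin (-0.54 ± 0.15), and Mfap5, of elastic microfibrils (-0.52 ± 0.17).

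For the remaining lists the balance was nearer even. Of other proteases and inhibitors 9 of 15 were lower, with Plat, the tissue plasminogen activator, at -0.37 ± 0.14 (SE), or -0.23 with normexp, and Mmp16, a membrane metalloproteinase, at -0.43 ± 0.18. A further 14 of that list, Mmp9 and Mmp13 among them, were too dim to be tested. Of TGF-beta and PDGF signalling genes 16 of 33 were lower and 17 higher. Tgfbr3 (betaglycan), a coreceptor for TGF-beta, was at -0.45 ± 0.12, or -0.18 with normexp, and Ltbp1, which anchors latent TGF-beta in the matrix, at -0.30 ± 0.11.

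**Figure D5:**
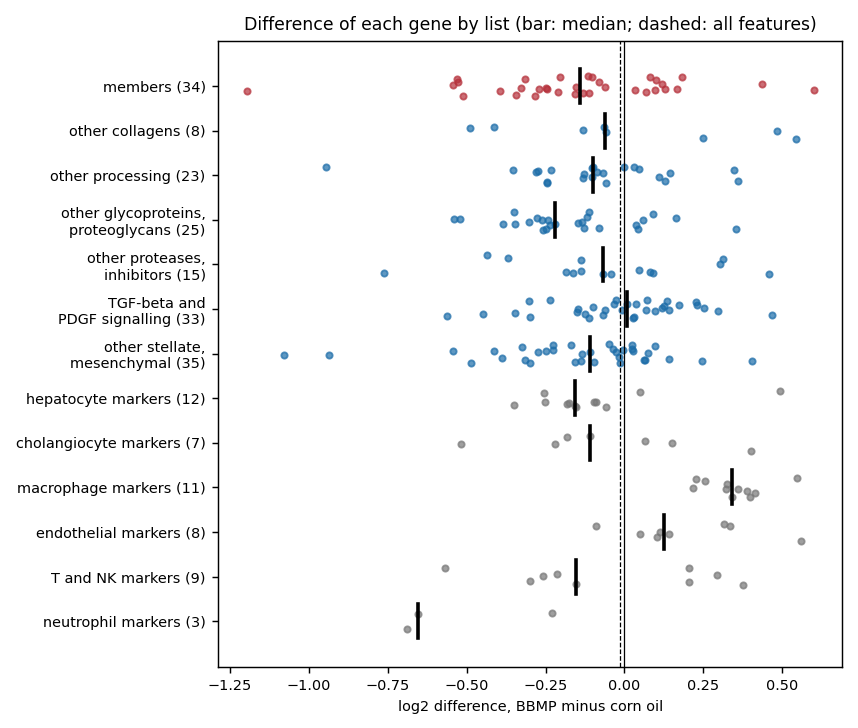
Log2 difference (BBMP minus corn oil, x axis) of each tested gene, by list (y axis, number of tested genes in brackets), with the list's median as a bar and the median of all features as a dashed line. The members' median is -0.14, that of macrophage markers 0.34 and that of TGF-beta and PDGF signalling genes 0.01.

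Markers of other liver cells are given beside these values. Of 12 hepatocyte markers 10 were lower, with a median log2 difference of -0.16. Without overlap were 4 lower and 1 higher, Cps1 at 0.49 ± 0.20 (SE), against 9.6% and 8.25% of all features. The mean log2 signal of the 12 overlapped between groups (8.87 to 9.02 in corn oil, 8.78 to 8.97 in BBMP). Macrophage markers were higher in 11 of 11 cases, with a median of 0.34, but each of them overlapped between groups, at a mean log2 signal of 1.64 to 2.42 in corn oil and 1.82 to 2.60 in BBMP livers. Endothelial markers were higher in 7 of 8 cases with overlapping levels (0.71 to 1.01 against 0.90 to 1.15). Cholangiocyte markers were lower in 4 of 7 cases and T and NK cell markers in 5 of 9. The 3 tested neutrophil markers were lower, with overlap, and corn oil 2 held the highest value of S100a8 and S100a9; the others with a probe, Csf3r, Cxcr2, Itgam and Elane, were not well above background in all rats of either group. The part of any of these cells in the matrix differences was not tested.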

How the data were processed

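Liver RNA of 3 corn oil and 3 BBMP rats was read on 1-colour Agilent arrays (design 035170, annotated on rn4). The deposited scanner files hold linear intensity per spot, made by Feature Extraction 10.7.1.1 per the file headers, which also list a background-subtracted signal and a spatial detrending fit; arrays were not scaled to one another. Version 10.7 of Agilent Feature Extraction stands in the submitters' processing notes. The authors' value table also holds intensity, which equals the processed signal over 1 constant per array (column medians 0.0971 to 0.1005); it is linear and not centred, and the purpose of the constant is not given in the sources used here.

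Of 62976 spots, 1319 controls and 84 spike-in probes were left out. The 61573 remaining probes were named through unversioned accessions in the RefSeq table of GRCr8 (44.6% named). Signals were divided by their array's 75th percentile (450.1 to 570.4) and taken to log2, without outlier spots (at most 21 an array). Testing required that 1 group or both had the feature well above background in 3 of 3 rats; the brightest such probe stood for its gene. limma 3.58.1 in R 4.3.3 compared the groups, two-sided, without covariates, with Benjamini-Hochberg adjustment over 28112 features at 0.05. Fits were tested on simulated data. A lower bound sets the bright group's mean against, per dim array, the higher of the probe's signal and the lowest signal well above background. Tables were made with Python 3.11.15 and pandas 2.3.3. The number of arrays limits the precision.

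The members and lists were chosen with earlier results of these data known. The text names every member, the 2 genes with the smallest p of each wider list, and Lrat; a further gene under the rule is not reported here. Other names, such as those of genes too dim to test, were chosen after values were seen. Alternatives were normexp (offset 50, on the median spot signal, since no mean signal was in the files; the offset is added to each signal and by construction shrinks differences of dim probes), quantile normalization, median scaling, dropping the filter or asking for all 6 arrays, testing every probe, the mean of probes, robust moderation with a trend, a replicate block, the authors' value table, and leaving out each array. A slide block could not be fitted, since each slide holds 1 group.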

Additional observations from a re-analysis of the deposited data

How the results depend on the processing

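Members and wider-list genes past the adjusted threshold numbered 0 under all 16 alternatives. Features past it, 2 as analysed, went to 0 with normexp, when signal was required in all 6 rats (a rule both features fail) and with the replicate block, and to 1 without a filter; leaving out 1 array gave 0 to 4 (0 without corn oil 3, 4 without corn oil 2). The members' median of -0.14 was -0.088 with normexp and -0.10 with the mean of probes, and -0.17 to -0.068 without 1 array. The collagen median of -0.17 was -0.11 with normexp and -0.24 to -0.092 without 1 array. The marker median of -0.16 was -0.044 without a filter, which adds Thy1, and -0.27 to 0.016 without 1 array (0.016 without corn oil 1). Members without overlap, 12, were 9 to 13 under the alternatives that kept 6 arrays. Of the 34 members, 22 kept their sign under every alternative. With normexp, signs turned for Vim (-0.0028), Col1a2 (0.0045), Mmp14 (-0.17) and Timp1 (-0.061), and with the mean of probes for Col5a1 (0.098) and Eln (0.023). Normexp made most of the members' differences smaller, but those of Fn1, Bgn, Sparc, Col1a1 and Loxl1, among others, larger. With it 9 members were under an unadjusted limma p of 0.05, against 7 as analysed. Without 1 array the ranges that cross 0 were -0.033 to 0.16 for Acta2, -0.062 to 0.16 for Vim, -0.40 to 0.050 for Rgs5, -0.14 to 0.0060 for Col1a2, -0.012 to 0.30 for P4ha1, -0.26 to 0.13 for Plod2, -0.023 to 0.32 for Dcn, -0.082 to 0.13 for Mmp14 and -0.0040 to 0.27 for Timp2. Other than the removal by construction, the causes were not tested. The replicate numbers are not known to pair the rats: same-numbered rats deviated together with correlations of 0.089, 0.016 and 0.072, and the block left the members' median at -0.14. Signal over background limits Fkbp10, Gfap, Timp3, Lum and Thy1.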
